A study of Mus musculus with 6 samples.

Results

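The nucleolar ribosome assembly factors described here are 8 genes, Npm1, Ncl, Fbl, Nop56, Nop58, Dkc1, Polr1b and Ubtf, measured by RNA sequencing in mouse heart muscle. They were chosen by name, and their Ensembl identifiers were all found among the 55401 genes of the deposited tables. The tissue was the myocardium of male mice of wild-type genotype, with a time label of 8 weeks in all 6 libraries. The diabetic group (DM) had received an injection of STZ, and the control group (Ctrl) an injection of PBS, with 3 libraries in each. STZ (streptozotocin) kills pancreatic beta cells, so the diabetes it causes is one of insulin loss. The labels give no dose, no strain name, no age and no start for the 8 weeks, and nothing in them says whether each library is a different mouse. The p-values therefore speak only of how far these libraries vary, variation that may be technical.

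Ribosomes are built in the nucleolus, where RNA polymerase I transcribes the ribosomal RNA precursor from repeated genes. Small nucleolar RNAs, carried by box C/D and box H/ACA protein complexes, guide the methylation and pseudouridylation of that precursor while assembly factors fold it and load ribosomal proteins. In heart muscle, ribosome production is known to be raised during hypertrophic growth, and insulin and Myc are among the signals that drive it in animal cells.

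The values are FPKM, a count of fragments divided by transcript length and by the library's mapped fragments, so levels can be compared between genes of different length. The complete tables summed to between 531384 (DM replicate 2) and 581718 FPKM in DM libraries and to 586336 and 589719 FPKM in Ctrl libraries. Mitochondrial genes held 45.5%, 42.0% and 43.3% of that sum in DM replicates 1 to 3, against 47.3% and 47.1% in Ctrl replicates 1 and 2. After rescaling without mitochondrial and haemoglobin genes, 0 of the 8 factors had a limma adjusted p under 0.05, and Ncl had a log2 difference of 0.47. The number of fragments is not stated, so the depth behind each value is unknown, and no counting interval is given. The table of Ctrl replicate 3 lists 7711 genes (13.9%), among them 5 of the 8 factors. DM replicates 1 to 3 and Ctrl replicates 1 and 2 entered the test across genes, with the value of Ctrl replicate 3 given beside them where its table has one. The markers of the labelled tissue were present: 9 of 9 cardiomyocyte markers passed the filter, 1 of them fell (Actc1, cardiac actin), and they summed to between 10624 and 12288 FPKM in the DM libraries and between 13551 and 14353 FPKM in the Ctrl libraries. In such bulk samples, fewer cells of a type and less RNA per cell cannot be told apart.

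The 8 genes lie on 5 chromosomes. Ncl (ENSMUSG00000026234, chromosome 1, 86344719 to 86359400, minus strand, GRCm38) and Nop58 (ENSMUSG00000026020, chromosome 1, 59684971 to 59719044, plus strand) share a chromosome. Polr1b (ENSMUSG00000027395, chromosome 2, 129100995 to 129126594, plus strand) and Nop56 (ENSMUSG00000027405, chromosome 2, 130274430 to 130279313, plus strand) lie 1147835 bases apart. Npm1 (ENSMUSG00000057113, chromosome 11, 33152287 to 33163206, minus strand) and Ubtf (ENSMUSG00000020923, chromosome 11, 102304560 to 102319742, minus strand) are far apart on the same chromosome. Fbl (ENSMUSG00000046865) is at chromosome 7, 28169710 to 28179269, plus strand. Dkc1 (ENSMUSG00000031403) is at chromosome X, 75095854 to 75109777, plus strand.

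RefSeq promoter windows (GRCm38.p6), from 250 bases before to 50 bases after a transcription start, were matched for 6 of the 8 genes, 11 windows in all, of which 6 belong to Ubtf. The windows of Ncl (the factor with the largest difference between groups), of Nop56 and of its paralogue Nop58 are printed 5′ to 3′ on the strand of the gene. They lie at chr1:86359406-86359705, chr2:130274162-130274461 and chr1:59684756-59685055. Capitals mark matches, on either strand, to GGGCGG (a GC box, read as CCGCCC on the other strand) and CCAAT (read as ATTGG).
Ncl: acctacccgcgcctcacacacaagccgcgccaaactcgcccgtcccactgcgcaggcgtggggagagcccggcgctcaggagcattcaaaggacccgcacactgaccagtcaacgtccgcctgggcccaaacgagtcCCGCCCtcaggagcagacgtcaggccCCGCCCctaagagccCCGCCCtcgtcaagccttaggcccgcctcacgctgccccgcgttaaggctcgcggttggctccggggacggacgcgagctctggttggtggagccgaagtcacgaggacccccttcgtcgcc
Nop56: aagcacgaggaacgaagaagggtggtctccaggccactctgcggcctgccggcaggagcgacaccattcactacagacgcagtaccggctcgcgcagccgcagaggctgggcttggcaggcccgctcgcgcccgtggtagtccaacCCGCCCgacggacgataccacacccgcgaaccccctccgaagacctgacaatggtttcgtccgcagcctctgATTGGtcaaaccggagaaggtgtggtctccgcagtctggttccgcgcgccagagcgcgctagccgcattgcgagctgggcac
Nop58: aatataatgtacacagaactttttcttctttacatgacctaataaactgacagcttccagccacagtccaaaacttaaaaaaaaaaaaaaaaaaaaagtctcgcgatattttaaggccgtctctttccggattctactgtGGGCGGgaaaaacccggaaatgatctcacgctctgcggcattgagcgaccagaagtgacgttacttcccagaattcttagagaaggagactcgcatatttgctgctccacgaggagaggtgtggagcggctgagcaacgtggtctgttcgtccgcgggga

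The GC box occurred 3 times in the Ncl window, at 113, 87 and 72 bases before the RefSeq start, and once each in the windows of Nop56 and Nop58. The Ncl window lies wholly upstream of the gene span given above, so its positions hold for the RefSeq start alone. The Nop56 window also held CCAAT. Among the 6 genes with a window, 5 held GGGCGG in at least 1 window, and Dkc1 held none. That motif was in 9 of the 11 windows, against 35.7% of all 32851 RefSeq windows. Of those 9 windows 5 belong to Ubtf, so the windows are not independent. The share of G and C ran from 45.3% (Nop58) to 82.3% (a window of Ubtf) and was 69.3% for Ncl, beside a median of 52.7% over all windows. The E-box CACGTG, the sequence that Myc and its partner Max bind, was in 0 of the 11 windows and in 7.15% of all windows. CCGGAAG (ETS family) was also in 0 of 11, against 8.86% of all. CCAAT was in 3, GCATGC in 1 and TATAAA in 1 of the 11 windows, against 37.4%, 7.93% and 13.6% of all. These letter matches describe the windows and are not binding sites.

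None of the 8 factors passed the test between DM and Ctrl hearts, and the differences were small. On the log2(FPKM + 1) scale the largest differences were those of nucleolin (Ncl) and nucleophosmin (Npm1), the abundant multifunctional proteins of the nucleolus. Their mean FPKM in DM libraries was 1.44 and 1.31 times that in Ctrl libraries. By that ratio Npm1 did not stand apart, as Nop56 was at 1.33 and Ubtf at 1.3. The methyltransferase fibrillarin (Fbl) and the pseudouridine synthase dyskerin (Dkc1) had DM means at 0.922 and 0.918 of the Ctrl means. With limma on log2(FPKM + 1) and Benjamini-Hochberg adjustment over 11556 genes, 0 of 8 factors had an adjusted p under 0.05, where 5.82% of all tested genes did (3.64% higher in DM and 2.17% lower). At an unadjusted p under 0.05 there were 2 of 8 factors (Ncl and Npm1), where 26.6% of all tested genes had one. The median log2 difference over the 8 factors was 0.19, beside 0.06 over all genes tested, with a range from -0.10 (Fbl) to 0.49 (Ncl). All 8 met the filter of at least 1 FPKM in at least 2 libraries.

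Npm1 encodes nucleophosmin, a histone chaperone that shuttles between nucleolus and cytoplasm and takes part in the export of ribosomal subunits. It was at 37.15, 33.11 and 37.63 FPKM in DM replicates 1 to 3, and at 24.40 and 30.65 FPKM in Ctrl replicates 1 and 2. All DM values lay above both Ctrl values, but the Ctrl pair spanned more FPKM than the gap between the groups. The log2 difference was 0.38 ± 0.15 (SE, limma adjusted p = 0.162), with a 95% interval from 0.03 to 0.73. Without Ctrl replicate 1 it was 0.22, and without Ctrl replicate 2 it was 0.54. The size thus depended on which Ctrl library was kept. The table of Ctrl replicate 3 does not list Npm1, so which of the 2 Ctrl values is the unusual one cannot be told.

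Npm1 is also the factor with the most near-identical copies. Its longest coding transcript matched 8 other annotated genes, all processed pseudogenes, over at least 400 bases with at least 90% identity on the same strand. The pseudogene Gm14681 (chromosome X, 66778442 to 66778852, minus strand), with 97.4% identity over 420 aligned bases, was listed at 24.48, 15.01 and 18.71 FPKM in DM libraries, against 10.68 and 11.96 FPKM in Ctrl libraries. Its log2 difference was 0.70 ± 0.21 (SE, limma adjusted p = 0.0988). The pseudogene Gm9118, at 97.3% identity, had 2.55 to 3.85 FPKM in DM and 2.74 and 2.38 FPKM in Ctrl. How the authors' quantification divided fragments between Npm1 and these copies is not known, so the Npm1 level is uncertain. Nop56 had 5 such copies, Fbl 2, Ncl 1 and Dkc1 1, each listed below 1 FPKM in the 5 complete libraries, and Nop58, Polr1b and Ubtf had 0.

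Ncl encodes nucleolin, which binds nascent ribosomal RNA and the chromatin of its genes. Its values were 17.81, 20.29 and 20.90 FPKM in DM libraries, against 13.52, 13.86 and 14.82 FPKM in Ctrl libraries, the last from the incomplete table. The groups did not overlap, with a gap over the 6 values wider than the range within Ctrl but slightly narrower than that within DM. The log2 difference over the 5 complete libraries was 0.49 ± 0.13 (SE, limma adjusted p = 0.0754, 95% interval 0.19 to 0.79).

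Adding the third Ctrl library where it listed a gene gave Ncl a log2 difference of 0.45 ± 0.10 (SE, limma adjusted p = 0.0385). In that fit Ncl passed as higher in DM, as did 6.38% of all tested genes. Over the 4811 tested genes that all 6 tables list, the adjusted p of Ncl was 0.0185 by limma, and 12.6% of those genes passed as higher. Ncl was the only factor to pass in either fit. It also passed at a threshold of 0.1 in the fit of 5 libraries, with 8.84% of all tested genes called higher there. Over all alternatives run, its limma adjusted p ran from 0.0185 to 0.383 and its log2 difference from 0.42 to 0.57. On its own, the exact two-sided permutation test of Ncl over 6 libraries gave p = 0.1, which is the smallest that 3 against 3 allows.

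**Figure D1:**
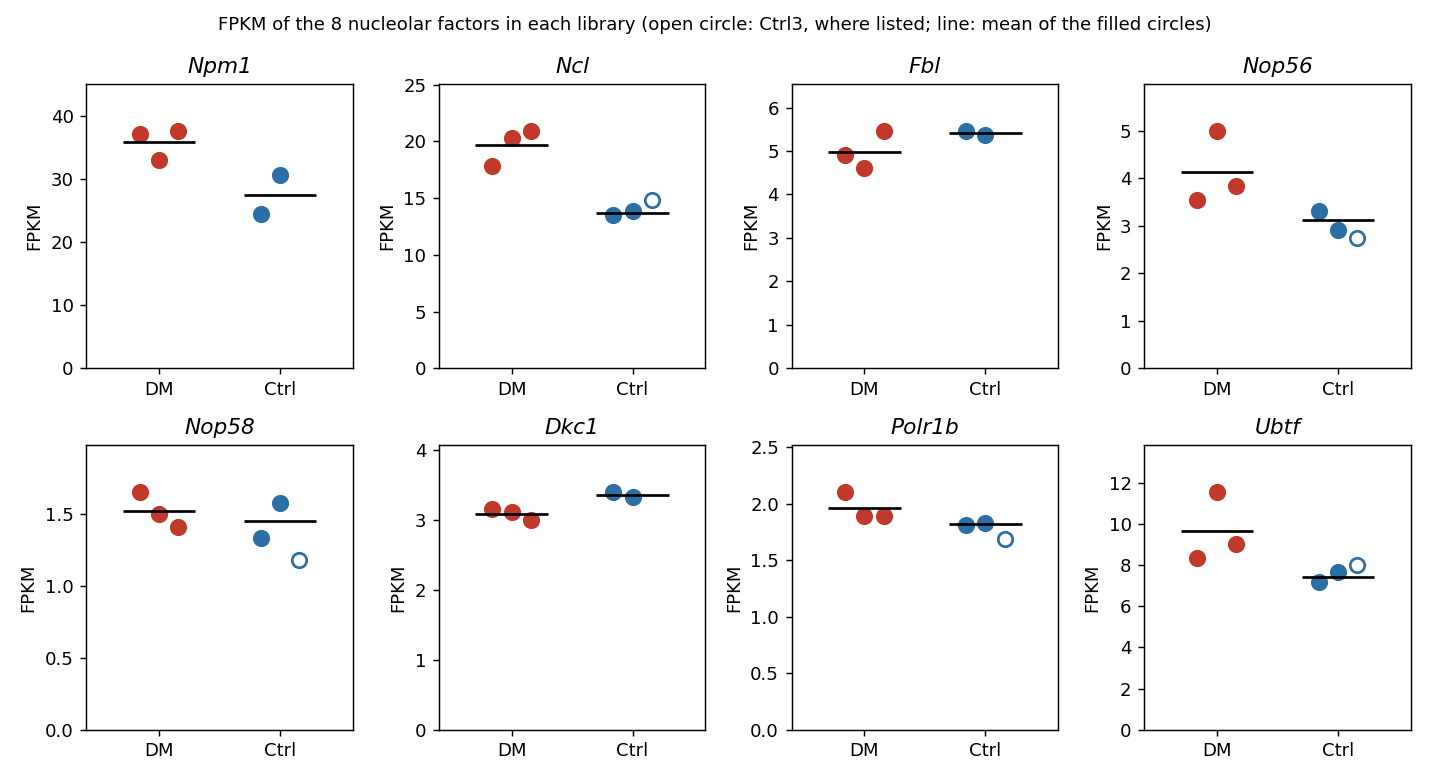
FPKM of each of the 8 factors in each library, in a panel per gene with its own axis from 0, DM left and Ctrl right; filled circles are the 5 complete libraries, open circles Ctrl replicate 3 where listed, and lines the means of the filled circles. The DM points of Ncl (17.81 to 20.90 FPKM) all lie above its Ctrl points (13.52 to 14.82 FPKM), while those of Fbl and Nop58 overlap with Ctrl.

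Fbl, Nop56 and Nop58 encode core proteins of the box C/D particles. Fibrillarin transfers the methyl group, and Nop56 and Nop58 are related scaffold proteins that hold the guide RNA. Fbl was at 4.90, 4.60 and 5.46 FPKM in DM libraries, against 5.46 and 5.36 FPKM in Ctrl libraries, with DM replicate 3 equal to the higher Ctrl value. Its log2 difference was -0.10 ± 0.12 (SE, limma adjusted p = 0.635), and the 95% interval ran from -0.40 to 0.19.

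Nop56 was at 3.55, 4.99 and 3.83 FPKM in DM libraries, against 3.31, 2.91 and 2.73 FPKM in Ctrl libraries, the last from the incomplete table. The lowest DM library was still above the highest Ctrl library, and DM replicate 2 stood apart above the rest. The log2 difference was 0.31 ± 0.16 (SE, limma adjusted p = 0.263), and it was 0.19 without DM replicate 2. With the third Ctrl library added it was 0.36 (limma adjusted p = 0.127, against a range over all alternatives from 0.0883 to 0.662). The last 5 bases of the Nop56 locus lie under the opposite-strand gene Idh3b, which was at 143.99 to 155.19 FPKM in DM and at 170.54 and 174.81 FPKM in Ctrl.

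Nop58 was the lowest of the 8, at 1.65, 1.5 and 1.41 FPKM in DM libraries and at 1.33, 1.58 and 1.18 FPKM in Ctrl libraries. The groups overlapped. The log2 difference was 0.04 ± 0.13 (SE, limma adjusted p = 0.874, 95% interval -0.28 to 0.36), and its sign was negative when libraries were centred on their medians, after quantile normalization and without Ctrl replicate 1. The interval allows a difference of up to 1.28-fold upward on the log2(FPKM + 1) scale.

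Within a library, ratios between genes do not depend on how the library was scaled. Fbl over Nop56 was 1.38, 0.922 and 1.43 in DM libraries, against 1.65 and 1.84 in Ctrl libraries. These ratios did not overlap, and the exact two-sided permutation p was 0.2, the smallest that 3 against 2 libraries allows. Nop56 over Nop58 overlapped between groups, at 2.15, 3.33 and 2.72 in DM and at 2.49, 1.84 and 2.31 in Ctrl. Of all 28 ratios between the 8 factors, which share genes, 14 had groups that did not overlap. For single genes, the share without overlap in either direction was 47.4% of those tested. No such share was computed for ratios between other genes, so the count of 14 is no result about the factors.

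Dkc1 encodes dyskerin, which converts uridine to pseudouridine in box H/ACA particles and is also a part of telomerase. It was at 3.15, 3.11 and 2.99 FPKM in DM libraries, against 3.39 and 3.33 FPKM in Ctrl libraries. All DM values were below both Ctrl values by a narrow margin. The log2 difference was -0.09 ± 0.11 (SE, limma adjusted p = 0.627, 95% interval -0.36 to 0.17). Its last 45 exonic bases are shared with Mpp1 on the opposite strand.

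Polr1b encodes a subunit of the catalytic core of RNA polymerase I. It was at 2.10, 1.89 and 1.89 FPKM in DM libraries, against 1.81, 1.83 and 1.69 FPKM in Ctrl libraries. The groups did not overlap, but the nearest libraries differed by little. The log2 difference was 0.07 ± 0.12 (SE, limma adjusted p = 0.749, 95% interval -0.22 to 0.36), and after quantile normalization it was -0.0025.

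Ubtf encodes the upstream binding factor, which bends the ribosomal RNA gene and keeps it open for RNA polymerase I. Its values were 8.36, 11.53 and 9.01 FPKM in DM libraries, against 7.20, 7.65 and 7.99 FPKM in Ctrl libraries. The groups did not overlap, with DM replicate 2 highest and DM replicate 1 close to Ctrl. The log2 difference was 0.32 ± 0.16 (SE, limma adjusted p = 0.248), and it was 0.20 without DM replicate 2. With the third Ctrl library added it was 0.29 (limma adjusted p = 0.186, against a range over all alternatives from 0.138 to 0.636). DM replicate 2, highest for Nop56 and Ubtf, also had the most red cell RNA: 5 erythroid markers summed to 329, 959 and 361 FPKM in DM replicates 1 to 3 and to 310 and 283 FPKM in Ctrl replicates 1 and 2, 0 of the 5 passed, and their part in the result was not tested.

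Over the 5 complete libraries, 5 of the 8 factors had DM values that all lay above Ctrl (Npm1, Ncl, Nop56, Polr1b and Ubtf), and Dkc1 had DM values that all lay below. The share of tested genes with all DM values above Ctrl was 28.7%, and the share with all below was 18.8%. With the third Ctrl library, 4 of the 5 listed factors (Ncl, Nop56, Polr1b and Ubtf) still had all DM values above Ctrl, against 26.1% of the tested genes that all 6 tables list. The exact two-sided permutation p was 0.1 for each of these 4, the smallest that the 6 libraries allow. Any gene without overlap has that value, so it adds nothing to the lack of overlap.

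**Figure D2:**
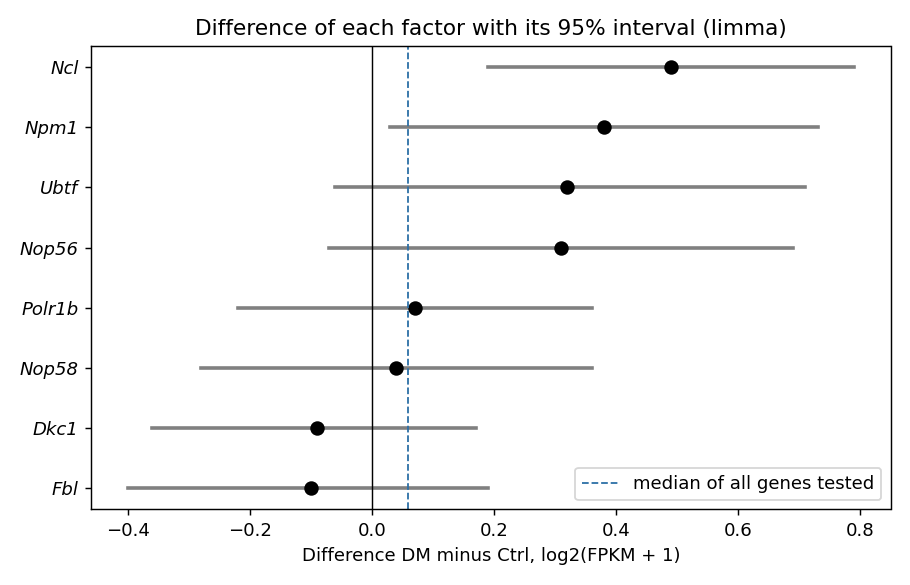
Difference DM minus Ctrl on the log2(FPKM + 1) scale for each factor (dots), with the 95% interval from limma over 3 DM and 2 Ctrl libraries (lines) and the median of all 11556 genes tested (dashed, 0.06). The dots run from -0.10 for Fbl to 0.49 for Ncl, and the intervals of Ncl and Npm1 lie above 0 before adjustment for the number of genes.

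Levels spanned a wide range. Npm1 averaged 36.0 ± 2.48 FPKM in DM and 27.5 ± 4.42 FPKM in Ctrl libraries (SD, n = 3 and 2), and in mean FPKM it lay above 92.1% of tested genes. It was followed by Ncl at 19.7 ± 1.64 FPKM in DM and 13.7 ± 0.24 FPKM in Ctrl, and by Ubtf at 9.63 ± 1.67 FPKM in DM and 7.43 ± 0.318 FPKM in Ctrl. Fbl was next in both groups. At the low end, Polr1b averaged 1.96 ± 0.121 FPKM in DM and 1.82 ± 0.0141 FPKM in Ctrl, and Nop58 lay above 16.8% of tested genes. In DM libraries the ranges of neighbours overlapped for Fbl and Nop56 (4.60 to 5.46 and 3.55 to 4.99 FPKM), and for no other neighbours. In Ctrl libraries 1 and 2 no neighbours overlapped, and Dkc1 (3.33 to 3.39 FPKM) was above Nop56 (2.91 to 3.31 FPKM), the reverse of their order in DM. The 8 factors together summed to 78.7, 81.0 and 83.1 FPKM in DM libraries and to 60.4 and 67.2 FPKM in Ctrl libraries. Npm1 and Ncl made up 65.9% to 70.4% of that sum in DM and 62.8% and 66.3% in Ctrl.

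Small nucleolar RNAs are the guides of these complexes, and many are cut from introns of genes for nucleolar proteins. Within 4 of the 8 genes GENCODE release M21 annotates 13 small nucleolar RNA genes on the same strand, 5 in Nop56, 4 in Nop58, 3 in Ncl and 1 in Dkc1. Their annotated lengths ran from 68 to 133 bases. In the 5 complete libraries none reached 1 FPKM, and 4 of the 13 were listed at 0 throughout. The highest single value was 0.78 FPKM, for Snord110 within Nop56 in DM replicate 1, and that gene was listed at 0 in the other 4 complete libraries. The libraries were made from poly(A) RNA, per the labels' protocols, and the mature small nucleolar RNAs carry no poly(A) tail, so these values do not measure them.

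The rest of the pathway was described with lists of the same complexes and of later assembly steps. Leaving out the 8 factors, 118 listed assembly genes were tested, of which 4 rose, 1 fell and 113 did not pass by limma, that is 4.24% called beside 5.82% of all genes. Their median log2 difference was 0.04, beside 0.06 over all genes, and 71 had a positive and 47 a negative sign. The genes that rose were Nhp2, Nsa2, Nop53 and Rrs1, and Rrp12 fell.

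Nhp2, a small protein of the box H/ACA core that binds beside dyskerin, was at 12.61, 13.56 and 13.05 FPKM in DM libraries, against 8.68, 7.65 and 8.46 FPKM in Ctrl libraries. Its log2 difference was 0.62 ± 0.12 (SE, limma adjusted p = 0.0408). The other proteins of that core, Nop10 and Gar1, did not pass. They were chosen for their place in the complex, after their values had been seen. Nop10 was at 24.57, 27.60 and 28.59 FPKM in DM and at 32.33, 32.65 and 28.83 FPKM in Ctrl libraries, a log2 difference of -0.27 (limma adjusted p = 0.229). Gar1 had a log2 difference of -0.13 (limma adjusted p = 0.585). Of 5 tested genes of the box H/ACA list, 1 passed, where 3.64% of all tested genes passed as higher, and the list's median was -0.09.

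Among 46 tested genes of 60S subunit assembly, 3 rose and 1 fell (8.7% called, beside 5.82% of all tested genes), with a median of 0.07. Rrs1, which brings the 5S ribonucleoprotein into the large subunit in yeast, was at 18.18, 15.74 and 13.96 FPKM in DM, against 8.26 and 9.15 FPKM in Ctrl libraries (log2 difference 0.80 ± 0.15 SE, limma adjusted p = 0.0371). Nsa2, a factor of late nuclear steps, was at 15.95, 17.11 and 18.37 FPKM in DM, against 10.27 and 10.64 FPKM in Ctrl libraries (0.66 ± 0.12 SE, limma adjusted p = 0.0368). In both genes the gap between the groups was wider than the range within either. Nop53, which recruits the exosome to the precursor of the large subunit in yeast, was at 23.90, 24.85 and 28.10 FPKM in DM, against 16.14 and 16.47 FPKM in Ctrl libraries (0.62 ± 0.13 SE, limma adjusted p = 0.045). Rrp12, an export factor of both subunits in yeast, was at 3.18, 3.58 and 2.79 FPKM in DM, against 6.02 and 5.27 FPKM in Ctrl libraries (-0.67 ± 0.14 SE, limma adjusted p = 0.0451).

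In the fit of 5 libraries these 5 calls were close to the threshold. None of them passed without DM replicate 1 or DM replicate 2, and Rrs1 alone passed without DM replicate 3. Calls over all tested genes were fewer too, at 348 to 398 in those fits against 672 with all 5 libraries. Without Ctrl replicate 1 or 2, which leaves 1 Ctrl library, the log2 differences of the genes that rose were 0.54 to 0.87. That of Rrp12 was -0.59 or -0.75. All 5 kept their sign in each fit that left out 1 library. Of the 5, the table of Ctrl replicate 3 lists Nhp2 alone. With that library added Nhp2 passed (limma adjusted p = 0.0154), where 6.38% of all tested genes passed as higher. On the genes of all 6 tables it passed too (limma adjusted p = 0.00563), where 12.6% passed as higher.

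In the other assembly lists nothing passed in the fit of 5 libraries at a threshold of 0.05. They were 11 genes of the box C/D core and its assembly (median log2 difference 0.04, range -0.22 for Ruvbl2 to 0.42 for Rpap3), and 13 RNA polymerase I subunits (median -0.09, range -0.28 for Polr1d to 0.63 for Polr2e). The others were 7 initiation and termination factors of that polymerase (median 0.19), 7 genes of the nucleophosmin family and nucleolar phosphoproteins (median -0.04) and 37 genes of the small subunit processome and 40S assembly (median 0.04). All of these counts include the 8 factors where they belong to a list. In the fits in which Ncl passed, some other genes of these lists did too. Polr2e, a subunit shared by the nuclear RNA polymerases, passed in all 3 of those fits, Nob1 and Rpap3 passed on the genes of all 6 tables, and Taf1d passed at a threshold of 0.1.

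None of the partners of the factors that are named next passed. The largest RNA polymerase I subunit, Polr1a, was at 2.93, 3.79 and 3.25 FPKM in DM, against 3.60 and 4.05 FPKM in Ctrl libraries (limma adjusted p = 0.489), and overlapped between groups. Npm3, a relative of Npm1 that binds to it, was at 5.38, 5.5 and 5.89 FPKM in DM, against 7.16 and 6.79 FPKM in Ctrl libraries (log2 difference -0.28, limma adjusted p = 0.189), on the other side of 0 from Npm1. Snu13, the box C/D protein that binds the guide RNA first, was at 13.58, 13.25 and 13.17 FPKM in DM, against 14.63 and 14.92 FPKM in Ctrl libraries (-0.14, limma adjusted p = 0.465). Taf1d, a subunit of the selectivity factor that loads RNA polymerase I, was at 1.28, 1.28 and 1.65 FPKM in DM, against 0.72 and 0.60 FPKM in Ctrl libraries (0.53, limma adjusted p = 0.0843). The polymerase I initiation factor Rrn3, which growth signals act on, was at 8.72, 10.08 and 7.01 FPKM in DM, against 9.77, 9.46 and 10.10 FPKM in Ctrl libraries (limma adjusted p = 0.579), with overlap. Nolc1, a chaperone of small nucleolar particles, had a log2 difference of 0.23 (limma adjusted p = 0.295), and Gnl3 (nucleostemin) one of 0.19 (limma adjusted p = 0.437). The RNA methyltransferase Nop2 and the acetyltransferase Nat10 had differences of 0.18 and 0.05 (limma adjusted p = 0.642 and 0.831). These partners too were chosen after their values had been seen.

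Myc, the transcription factor known to drive many nucleolar genes, passed in the Myc network list, where 1 of 10 tested genes rose and 0 fell, beside 3.64% of all tested genes that rose and 2.17% that fell. It was at 2.40, 2.55 and 2.30 FPKM in DM libraries, against 0.57, 1.21 and 1.05 FPKM in Ctrl libraries, with no overlap. Its log2 difference was 0.87 ± 0.18 (SE, limma adjusted p = 0.044). The call was lost when any 1 of the 3 DM libraries was left out, with adjusted p from 0.0843 to 0.0871 by limma. In those fits 348 to 398 of all tested genes passed, against 672 with all 5 libraries. Without Ctrl replicate 1 or 2, which leaves 1 Ctrl library, the log2 difference of Myc was 0.63 or 1.12. The call was also lost after centring (limma adjusted p = 0.0537), after quantile normalization (0.0553), with no filter (0.132) and with the replicate block (0.0995). Over all genes, 81 passed with no filter and 64 with the replicate block. At a pseudocount of 0.1 the call of Myc was lost as well (limma adjusted p = 0.054), with a log2 difference of 1.42. The call held with Ctrl replicate 3 added (limma adjusted p = 0.0202), where 6.38% of all tested genes passed as higher. On the genes of all 6 tables it held too (limma adjusted p = 0.00767), where 12.6% passed as higher. It also held on TPM, at a pseudocount of 0.5, after rescaling without mitochondrial and haemoglobin genes, without the eBayes trend and with robust eBayes. Mycn was too low to be tested, at 0.13, 0.20 and 0.33 FPKM in DM libraries and at 0.90 and 1.08 FPKM in Ctrl libraries. The median log2 difference of the Myc network list was 0.33, beside 0.06 over all genes tested. Of its 10 tested genes 9 had a positive sign, where 57% of all tested genes had one. On the log2(FPKM + 1) scale the largest difference in the list was that of Mxd4 (0.96), above Myc, and Max (0.67) and Mxi1 (0.56) were also positive. These 3 genes did not pass. That scale understates the difference of a low gene such as Myc, whose DM mean was 2.72 times its Ctrl mean. The order of Mxd4 and Myc therefore holds for that scale alone.

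**Figure D3:**
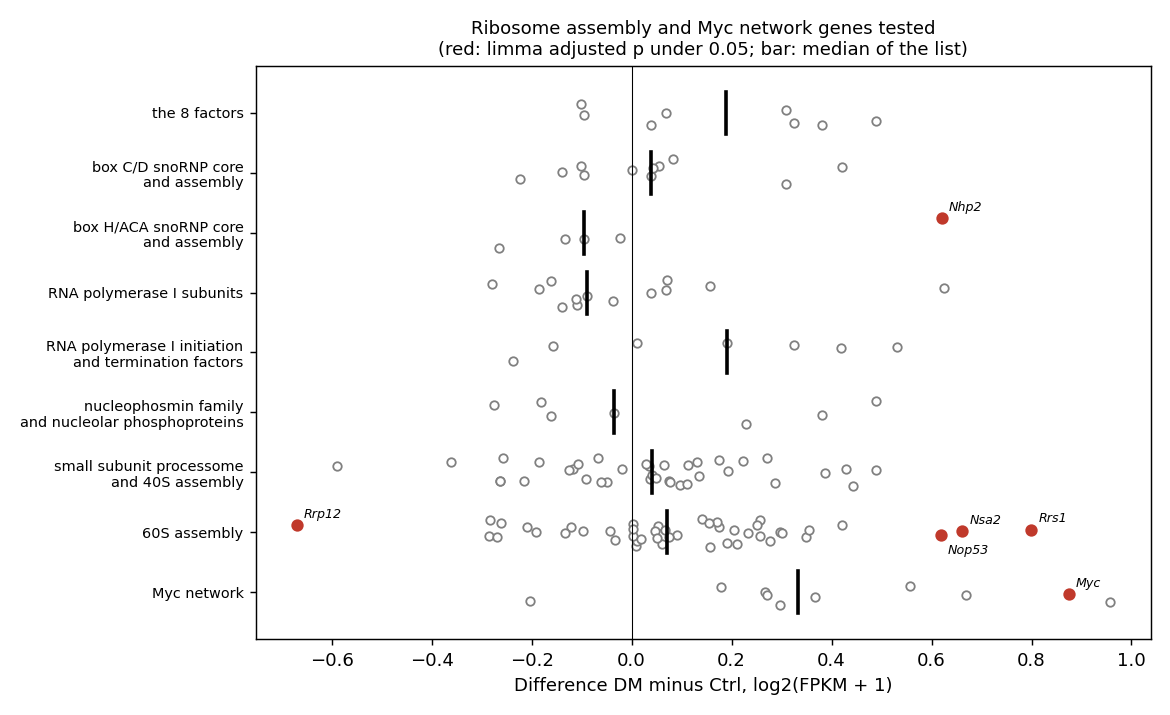
Difference DM minus Ctrl on the log2(FPKM + 1) scale for each tested gene of each list (circles), with the list median (bar); filled red circles passed a limma adjusted p of 0.05, and a gene in more than 1 list is drawn in each. The 6 named circles are the calls, and the 8 factors in the top row are all open.

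By the root mean square difference of centred log2(FPKM + 1) values over the 5 complete libraries, the mean profile of the 8 factors ran at 0.04, 0.11 and 0.07 in DM libraries and at -0.13 and -0.08 in Ctrl libraries. Of 4494 protein-coding genes with at least 5 FPKM on average, the nearest were Dnm2 (root mean square difference 0.0131), Aprt (0.0172), Anxa7 (0.0209), Atp6v0b (0.0228) and Cystm1 (0.0235). The median over those genes was 0.208. The 8 factors, which make up that mean, lay from 0.0787 (Polr1b) to 0.164 (Ncl) away from it. Dnm2, a dynamin of membrane fission, was at 12.99, 13.80 and 13.13 FPKM in DM, against 11.37 and 11.66 FPKM in Ctrl libraries.

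Markers of other cell types were set beside these values. Cycling cells have much nucleolar RNA, and their 7 markers were all too low to be tested, with sums of 0.30 to 0.60 FPKM in DM and 1.15 to 1.26 FPKM in Ctrl libraries and no single value above 0.30 FPKM. Of 8 neutrophil markers 3 were tested and rose, with sums of 42.7 to 58.8 FPKM in DM and 3.66 to 8.22 FPKM in Ctrl, and Elane was at 0 in all 5 complete libraries. Of 8 fibroblast markers 3 fell (Col1a1, Col1a2 and Col3a1), with sums of 127 to 131 FPKM in DM and 147 to 171 FPKM in Ctrl. None of the 7 endothelial markers passed, with sums of 137 to 170 FPKM in DM and 126 to 129 FPKM in Ctrl. Of 7 tested pericyte and smooth muscle markers 1 fell (Acta2), with sums of 164 to 211 FPKM in DM and 199 to 215 FPKM in Ctrl. None of the 7 tested macrophage markers passed, with sums of 86.5 to 118 FPKM in DM and 114 to 121 FPKM in Ctrl. Of 4 adipocyte markers 1 was tested and did not pass, Lep was at 0, and the sums were 0.20 to 1.59 FPKM in DM and 2.15 to 4.09 FPKM in Ctrl, without overlap. The 7 lymphocyte and 4 Schwann cell markers were too low to be tested. Atrial markers varied within groups, with sums of 3306, 961 and 1591 FPKM in DM and 1329 and 303 FPKM in Ctrl, and 0 of the 4 tested passed. The part of these cell types in the values of the 8 factors was not tested.

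**Figure D4:**
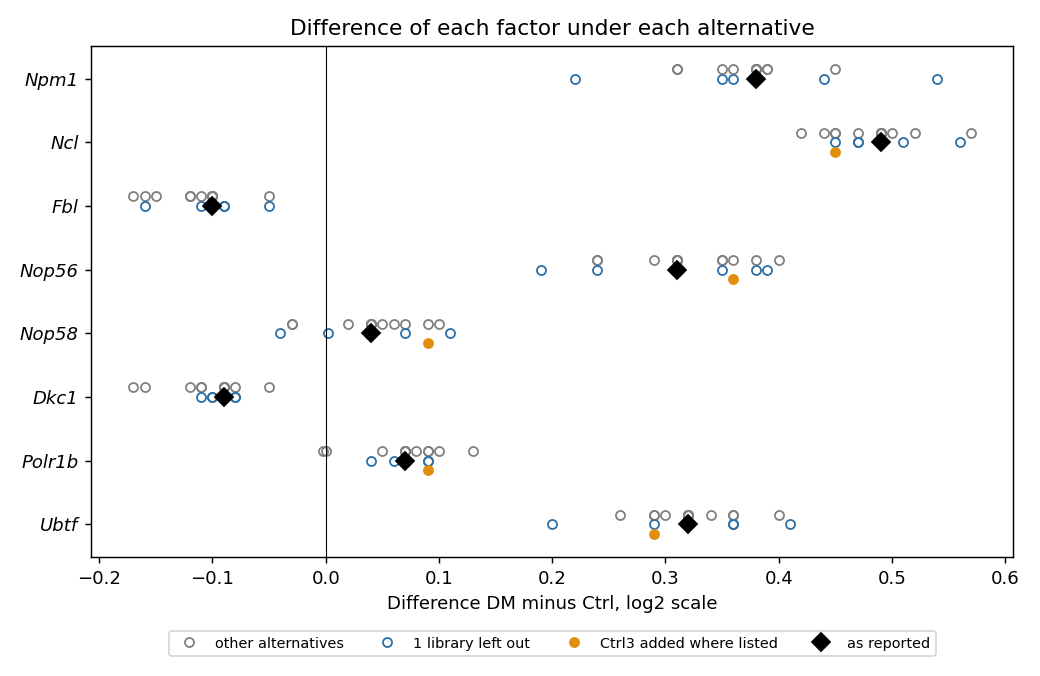
Difference DM minus Ctrl on the log2 scale for each factor as reported (black diamonds), with 1 library left out (blue circles), with Ctrl replicate 3 added where its table lists the gene (orange) and under the other processing alternatives (grey). The values of Ncl stay between 0.42 and 0.57, while those of Nop58 lie on both sides of 0, from -0.04 to 0.11, and Polr1b reaches -0.0025 after quantile normalization.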

How the data were processed

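Poly(A) RNA of 6 myocardium libraries was sequenced after dUTP marking of one cDNA strand, per the labels' protocols. The values deposited by the authors are FPKM per gene, 1 table per library, rounded to 2 decimals. Per the submitters' processing notes, cutadapt 1.9, HISAT2 2.0.4, StringTie 1.3.4d and the build GRCm38 were used. Settings, strand use and annotation release were not given in the sources used here.

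Identifiers were matched to GENCODE release M21 of that build (55141 of 55401). Tables listing under 50% of genes were left out of the fit. Genes reaching 1 FPKM in 2 or more of the 5 libraries were tested on log2(FPKM + 1), pseudocount 1, with limma 3.58.1 in R 4.3.3 (eBayes with trend, two-sided, Benjamini-Hochberg over all 11556 genes tested, threshold 0.05, no covariate), checked on simulated data. The simulated differences were larger than that of any of the 8 factors, so the check does not cover differences of their size. The log2(FPKM + 1) scale understates differences of low genes. Exact permutation tests used scipy 1.17.1 and copies BLAST+ 2.17.0, limits chosen after the data were seen. The factors and lists were chosen with earlier results of these data known. Named are the 8 factors, all list members that passed (at most 6 a list), and the 5 genes nearest in profile. Alternatives covered pseudocounts, filters, scaling, spread model, replicate block, threshold and libraries; the fit on genes of all 6 tables was added after the data were seen.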

Additional observations from a re-analysis of the deposited data

How the results depend on the processing

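None of the 8 factors passed under the alternatives run, except Ncl in 3 of them, so the count was 1 with Ctrl replicate 3 added, 1 on the genes of all 6 tables and 1 at an adjusted p of 0.1 (where 8.84% of all genes passed as higher). The number of genes that differed (672) was 81 with no filter, 64 with the replicate block, 1169 with Ctrl replicate 3 added, 1642 at an adjusted p of 0.1, and between 24 and 398 with 1 library left out. The 5 calls in the wider assembly lists were 0 with no filter, 2 after rescaling without mitochondrial and haemoglobin genes, 0 with the replicate block, and 0 to 1 with 1 library left out. They were 6 with Ctrl replicate 3 added, 5 on the genes of all 6 tables (Nhp2, Nob1, Polr2e, Rpap3 and Rpf1) and 7 at an adjusted p of 0.1. The fit on the genes of all 6 tables called 986 of 4811 genes. It did not hold Nsa2, Rrs1, Nop53 and Rrp12, which the table of Ctrl replicate 3 does not list. The median log2 difference of the factors (0.19) was 0.23 at a pseudocount of 0.1, 0.35 with at least 5 FPKM (4 factors), 0.12 after centring, 0.12 after quantile normalization, 0.27 on TPM, 0.22 with the replicate block, 0.29 on the genes of all 6 tables (5 factors), and 0.14 to 0.22 with 1 library left out. The sign of Nop58 was reversed after centring (-0.03) and quantile normalization (-0.03), with -0.04 to 0.11 over fits that left out 1 library, and that of Polr1b after quantile normalization (-0.0025). The cause was not tested. Higher genes made up 62.6% of calls as deposited, 48.5% after centring, 50.2% after quantile normalization and 73.8% on TPM. The deviations of same-numbered libraries from their group means had correlations of 0.077 and -0.027 over 2 pairs. With 2 Ctrl libraries those deviations mirror each other (DM replicate 1 had -0.077 with Ctrl replicate 2). These values therefore cannot show whether libraries were paired by number, and the labels give no pairing beyond the number itself. FPKM does not state the depth, so the precision of the low factors Nop58 and Polr1b is not known beyond the spread between libraries.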
